A study of Mus musculus with 6 samples.

Results

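The miR-130/miR-301 family was followed through a microarray study of EB3 cells, a mouse embryonic stem (ES) cell line of 129/Ola background. Its members were chosen by name among the probes of the array, as mmu-miR-130a, mmu-miR-130b, mmu-miR-301a and mmu-miR-301b (written below without the species prefix), with star strands left out. All 4 members were present among the 611 mouse microRNAs (miRNAs) of the array. The study compared 3 control samples, titled Activin (-), with 3 samples differentiated with Activin, titled Activin (+), on 1 single-colour Agilent miRNA array each. Activin, a secreted growth factor related to TGF-beta, is used to steer ES cells towards mesendoderm and endoderm. The labels describe 10 ng/ml of Activin during 3 days as embryoid bodies and then 15 days on gelatin, with harvest on day 18. That culture text is the same for all 6 samples, so whether control cells were differentiated without Activin or kept undifferentiated is not given in the sources used here. All samples share the 1 cell line. No label says whether replicates were separate cultures. The p-values below therefore reflect only how far these 6 samples scatter, and that scatter may be technical.

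miRNAs are short RNAs that lower the output of messenger RNAs carrying a match to their seed, the bases at positions 2 to 8. Members of the miR-130/miR-301 family share that seed and so share most predicted targets, among which the adipogenic regulator Pparg and the TGF-beta pathway mediator Smad4 have been studied. No target transcript was measured here. The family is best known from vascular and fat cell biology, and miR-301a is encoded inside Ska2, a gene for a spindle and kinetochore protein.

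The mature sequences are shown because the shared seed defines the family and because the probes must tell near-identical strands apart. RefSeq (GRCm38.p6) held the mature strand for 3 of the 4 members, under the names miR-130a-3p, miR-130b-3p and miR-301a-3p, and for miR-721, another miRNA of the array with the same seed. The array names carry no arm, and they were taken for the 3p strands, which the older names without an arm denote. Each is written 5′ to 3′ with the seed in capitals.
miR-130a-3p: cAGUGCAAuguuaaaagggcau
miR-130b-3p: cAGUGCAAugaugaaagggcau
miR-301a-3p: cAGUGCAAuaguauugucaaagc
miR-721: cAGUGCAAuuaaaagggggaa
In GRCm38.p6 these strands lie at chr2:84741116-84741137 (minus strand, Mir130a), chr16:17124071-17124092 (minus strand, Mir130b), chr11:87113054-87113076 (plus strand, Mir301) and chr5:136375777-136375797 (minus strand, Mir721). miR-301b-3p is named only. The hairpins of Mir130b and Mir301b are neighbours, with 257 bases between them, and both lie inside the span of the gene 2610318N02Rik. Mir301 lies inside the span of Ska2, and no gene of the RefSeq table spans Mir130a. Over the 22 positions that could be compared, miR-130a-3p and miR-130b-3p matched at 20 and differed by U11A and A13G, with positions counted from the 5′ end and the miR-130a-3p base given first. miR-301a-3p matched miR-130a-3p at 12 of 22 positions and miR-130b-3p at 11 of 22, and shared the first 9 bases with each. How far the probe of one member also binds another was not tested. Of 1738 mature mouse miRNAs in the table, 7 (0.403%) carried this seed.

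The arrays differed in brightness within each group. The intensity used to scale each array, explained below, ranged from 249 to 616 in control and from 177 to 570 with Activin. Control 1 and activin 2 were the dimmest, and they detected 80 and 54 mouse miRNAs against 110 to 119 on the other 4 arrays. No miRNA spot was saturated. Of the 10 ES and epiblast marker miRNAs, all were detected on at least 1 array and 4 on all 6. Their summed scaled signal was 16.0, 6.24 and 8.26 on control 1 to 3 and 5.93, 7.63 and 5.90 on activin 1 to 3. Members of this list moved in opposite directions. Log2 fold changes, activin minus control, were -0.67 for miR-291a-3p, -0.74 for miR-292-3p, -0.43 for miR-293, -0.37 for miR-294 and -0.38 for miR-295, but 1.23 for miR-302c. The other miRNAs of the list were not tested. Of the 6 mesenchymal and smooth muscle miRNAs, 4 were detected, with summed signals of 1.77 to 2.50 in control and 2.69 to 2.91 with Activin. Epithelial markers were detected for 3 of 5, neural ones for 1 of 2, striated muscle ones for 1 of 3 and endothelial ones for 1 of 2, while blood (0 of 3) and islet and liver (0 of 2) markers were detected on no array. In total RNA from a dish, fewer cells of a type and less RNA per cell cannot be told apart. The part of these marker levels in the values below was not tested.

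Detection differed between the members. The scanner software marks each spot that stands well above background, and a probe counted as detected when the share of marked spots exceeded 0.5. A miRNA counted as detected through any 1 of its probes. miR-130a and miR-130b were detected on all 6 arrays. miR-301a was seen on 5 arrays and missed on activin 2. miR-301b was detected on control 2, control 3 and activin 1. The 6 arrays gave 24 pairs of member and array, of which 20 were detected, 11 in control and 9 with Activin. The 4 pairs not detected were miR-301a on activin 2 and miR-301b on control 1, activin 2 and activin 3, so 3 of the 4 fell on the 2 dimmest arrays. Control 2, control 3 and activin 1 detected all 4 members, control 1 and activin 3 detected 3, and activin 2 detected 2.

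miR-130a was read by a pair of probes with 10 spots each, both detected on every array. Its brighter probe read 100.3, 384 and 350 background-subtracted intensity units on control 1, 2 and 3, and 431, 114 and 369.9 on activin 1, 2 and 3. Its dimmer probe read 64.3, 213 and 189 over control 1 to 3 and 225, 66.6 and 204 over activin 1 to 3, in the same order. Both probes were low on control 1 and activin 2 and high on the other 4 arrays, and the ratio of the brighter to the dimmer stayed between 1.56 and 1.92. The coefficient of variation over the spots of the brighter probe ran from 2.00% to 21.3%.

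miR-130b was read by a bright and a dim probe. The brighter probe read 190.5, 476 and 386 units over control 1 to 3 and 449, 180.1 and 475 over activin 1 to 3, and all its spots were well above background on every array. The dimmer probe stood between 12.9 and 40.4 and was detected on 3 arrays, control 2, control 3 and activin 1. On those 3 arrays the brighter probe exceeded the dimmer by 9.58 to 11.98 times.

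miR-301a, the member inside Ska2, was detected through 1 of its probes. That probe had intensities of 31.2, 138 and 110 (9.65% coefficient of variation over spots) in control 1, 2 and 3, and of 100.1, 25.8 and 110 (7.34%) in activin 1, 2 and 3. On control 1 its spots varied by 23.2%. On activin 2 none of its spots was well above background. The other miR-301a probe was detected on no array, at -3.23 to 12.2 intensity units, while the negative control spots of the arrays averaged 2.81 to 5.66 units.

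miR-301b, the neighbour of miR-130b, was detected on the fewest arrays of the 4 members. Of its 4 probes with 5 spots each, 3 were detected on no array. The remaining probe read 7.92, 40.5 and 43.1 units over control 1 to 3 and 43.5, 14.0 and 38.6 over activin 1 to 3. On activin 3 this probe was well above background at 2 of 5 spots and so missed the detection rule. On the 4 brighter arrays its scaled log2 values were -3.93 and -3.31 in control and -3.71 and -3.84 with Activin, so the groups overlapped. With the mean over its 4 probes, miR-301b lay at the lower limit set for the scaled signal on all 6 arrays and has no fold change there. It was not tested, since neither group detected it on all of its arrays.

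**Figure D1:**
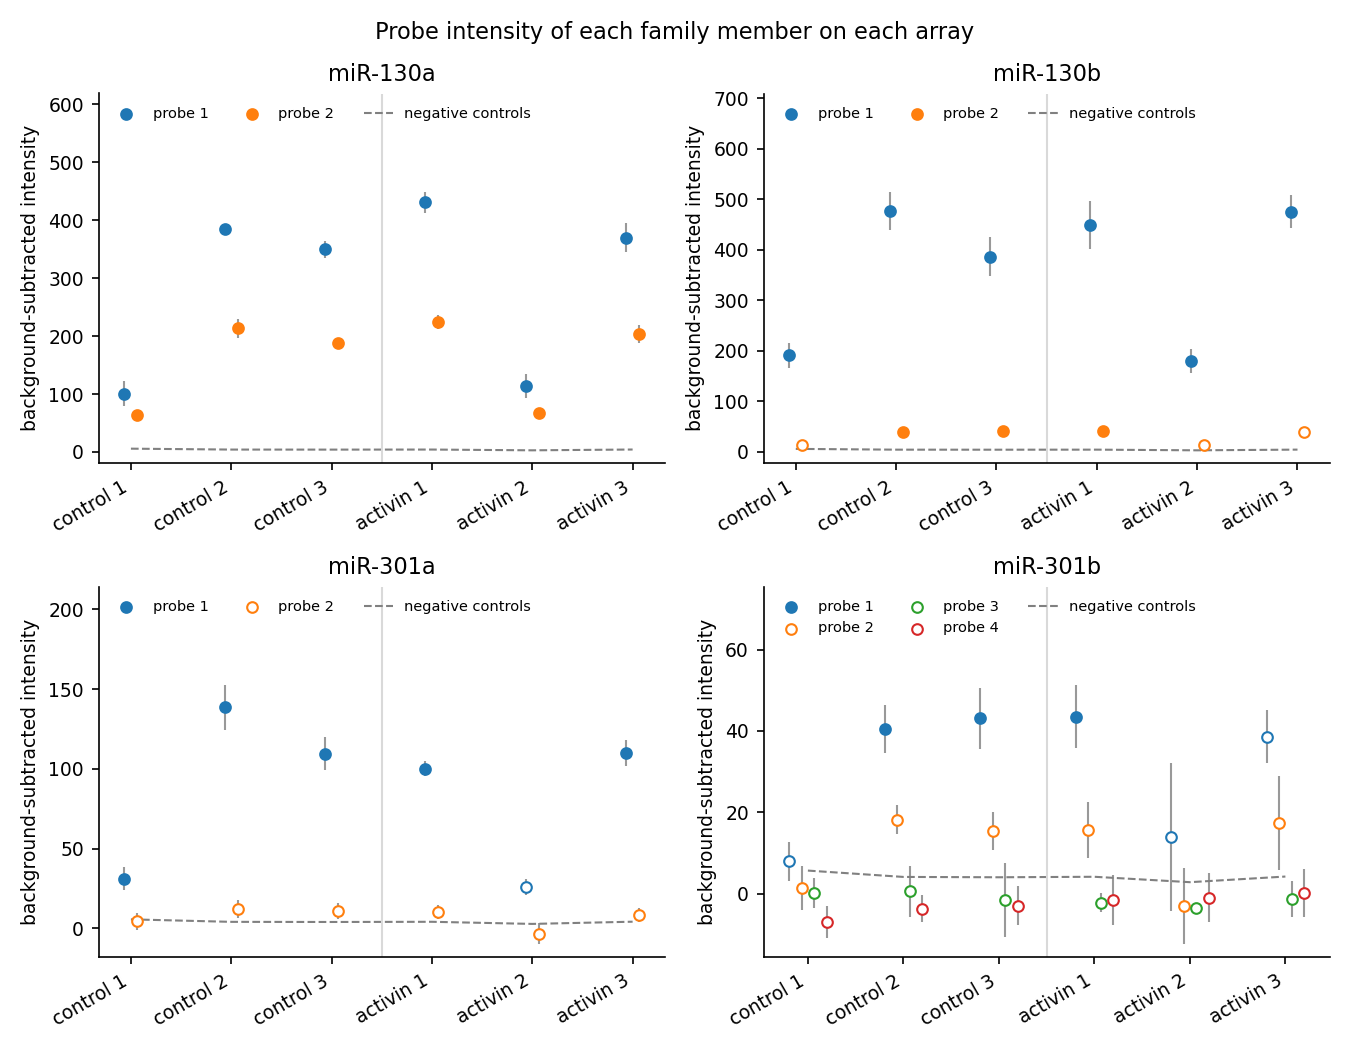
Mean background-subtracted intensity of each probe of the 4 members on each array (vertical axis, linear intensity units, a scale per panel; horizontal axis, arrays). Filled points are detected, open points are not, bars are the SD over spots and the dashed line is the mean of the negative control spots. Control 1 and activin 2 are low for every detected probe, and 3 of the 4 miR-301b probes are open on every array.

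Intensities were compared between groups after scaling, by division of each array by its own 75th percentile, taken over 59 probes that every array detected. Each miRNA was the mean over its probes, on the log2 scale, and values are log2 signals relative to that percentile. Levels of different miRNAs were not ranked against each other, since probes bind with different strength. The test was limma's moderated linear model, fitted to 79 mouse miRNAs that the control arrays, the activin arrays or both detected without exception, with Benjamini-Hochberg adjustment over all 79. Of the members, 3 entered it, with miR-301a entering through the control group.

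miR-130a did not differ between the groups beyond their spread. Its log2 signals were -1.60, -1.04 and -0.66 on control 1, 2 and 3, and -0.80, -0.97 and -0.95 on activin 1, 2 and 3. All 3 activin arrays lay between control 2 and control 3, and control 1 lay below them. The control mean was -1.10 ± 0.47 and the activin mean -0.91 ± 0.09 (SD, n = 3 each). The log2 fold change was 0.20 (SE 0.30, 95% interval -0.39 to 0.78, limma adjusted p = 0.775), which is 1.14-fold with an interval of 0.764 to 1.71. Without control 1 it turned to -0.05, and without control 1 and activin 2 it was 0.01.

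miR-130b did not differ between the groups beyond their spread either. Its log2 signals were -1.29, -1.25 and -1.001 on control 1, 2 and 3, and -1.22, -0.88 and -1.11 on activin 1, 2 and 3, and the groups overlapped. The control mean was -1.18 ± 0.16 and the activin mean -1.07 ± 0.17 (SD, n = 3 each). The log2 fold change was 0.11 (SE 0.29, 95% interval -0.47 to 0.69, limma adjusted p = 0.870), or 1.08-fold with an interval of 0.723 to 1.61. Leaving out activin 2, its highest array, turned it to -0.15, and the value was -0.01 without both dim arrays.

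miR-301a stood lower with Activin, within the spread of the arrays. Under the reported filter miR-301a was tested because the control arrays detected it, which favours this direction, so its direction is a description only. Its log2 signals were -3.81, -3.03 and -2.82 on control 1, 2 and 3, and -3.37, -3.97 and -3.23 on activin 1, 2 and 3. The lowest control array and the lowest activin array were the 2 dim ones, and the groups overlapped. The control mean was -3.22 ± 0.52 and the activin mean -3.52 ± 0.40 (SD, n = 3 each, activin 2 included though not detected). These values average the brighter probe with a probe that no array detected. With the brighter probe alone, activin 2 (not detected) stood at -2.78, above control 1 at -3.00. With the mean over its probes, the log2 fold change of miR-301a was -0.30 (SE 0.30, 95% interval -0.89 to 0.29, limma adjusted p = 0.619), or 0.811-fold with an interval of 0.540 to 1.22. In limma the value was -0.34 without the 2 dim arrays (adjusted p = 0.443), -0.59 without control 1 (adjusted p = 0.698), -0.10 without control 3 (adjusted p = 0.846) and -0.17 with the brighter probe alone (adjusted p = 0.757). With the software's total signal per miRNA it was -0.79 (adjusted p = 0.476). A fold change of 2 lay outside the reported intervals of all 3 tested members. Over the settings run, the interval took it in under 12 of 21 for miR-301a, 4 of 22 for miR-130a and 3 of 22 for miR-130b.

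**Figure D2:**
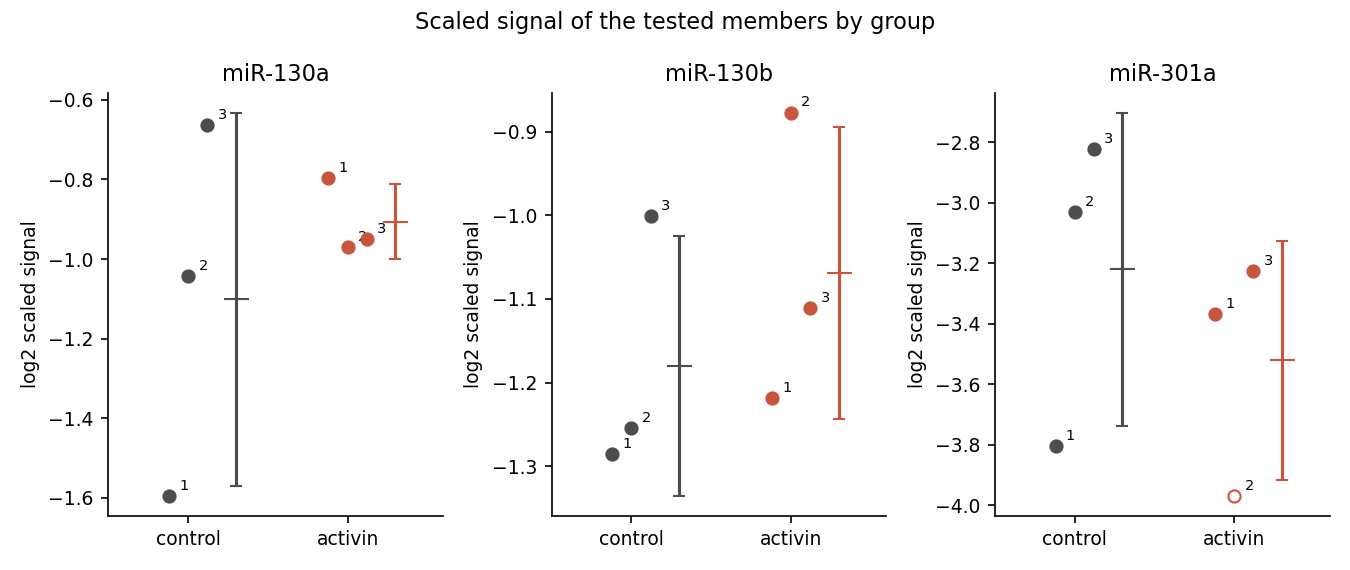
Scaled log2 signal of miR-130a, miR-130b and miR-301a on each array (vertical axis, log2 relative to the 75th percentile of detected probes; points numbered by replicate; the open point is not detected), with group means and SD beside the points. The 3 activin points of miR-130a lie between -0.97 and -0.80, inside the control range of -1.60 to -0.66, and the groups overlap in all 3 panels.

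Of the 3 tested members, 0 passed an adjusted p of 0.05 and 0 had an unadjusted p under 0.05 in limma, where 1.27% of the 79 tested miRNAs passed. Without the 2 dimmest arrays 0% of the 115 miRNAs then tested passed and 8 had an unadjusted p under 0.05, of which 0 were members. The 1 call was miR-302c, an epiblast and ES cell miRNA of another family. Its log2 fold change was 1.23 (SE 0.30, limma adjusted p = 0.00597), but its control and activin arrays overlapped. That SE follows a spread shared over the tested miRNAs, while the SD of miR-302c itself was 0.89 among control arrays and 0.33 among activin arrays. Its mean control signal, -4.08, was low, with the lower limit at -4.94. No miRNA passed under 18 of 21 alternative settings. In the reported test, 9 of the 79 had an unadjusted p under 0.05. The groups were free of overlap for 0 of the 3 members, against 17.7% of the 79. miR-130a and miR-130b lay above 0 and miR-301a below, and over all tested miRNAs 50 lay above 0 and 29 below. The median log2 fold change was 0.11 over the 3 members and 0.17 over the 79. Relative to that median of all, miR-130a stood at 0.03, miR-130b at -0.05 and miR-301a at -0.47. Among the 79, 42 miRNAs had a lower fold change than miR-130a, 35 a lower one than miR-130b and 13 a lower one than miR-301a. The miR-301a value relative to the median ranged from -0.87 to -0.24 over the 21 settings that tested it, but under the reported filter it was tested because the control arrays detected it, so its place in the order is given as a description only. miR-130a was above that median in 19 of 22 settings and below in 3, and miR-130b above in 5, below in 16 and at the median in 1, so neither kept a side.

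**Figure D3:**
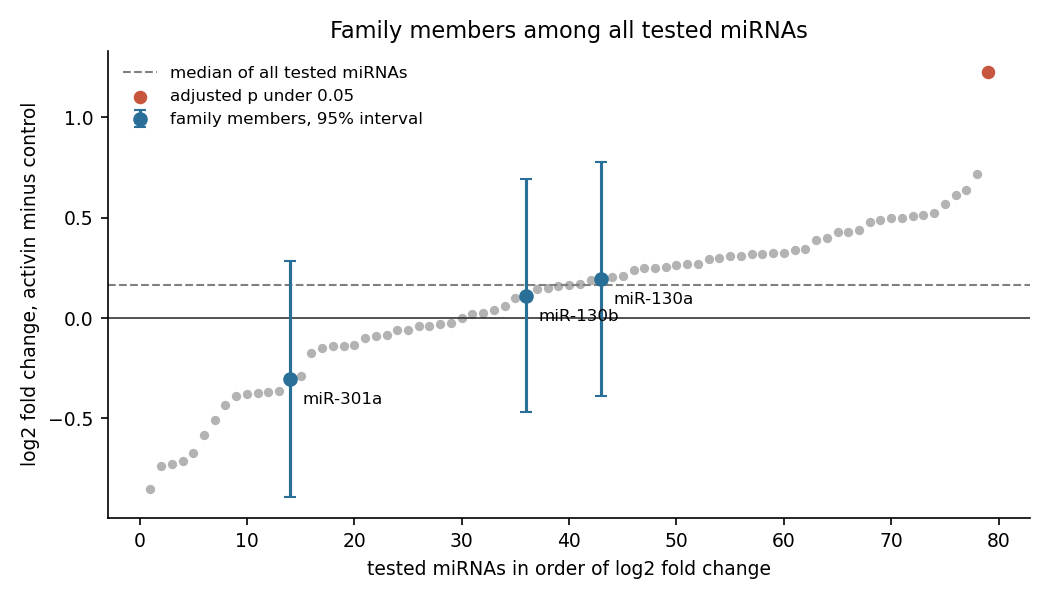
Log2 fold change, activin minus control, of the 79 tested miRNAs in rising order (vertical axis, log2; horizontal axis, place in the order). Blue points are the 3 members with 95% intervals, the red point is miR-302c and the dashed line is the median of 0.17. miR-130a and miR-130b sit near the middle of the order and miR-301a has 13 miRNAs below it.

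Division of an array by a constant changes a difference between 2 members within that array only through the lower limit set for the signal. miR-130a minus miR-301a was 2.21, 1.99 and 2.16 on the log2 scale in control and 2.57, 3.00 and 2.28 with Activin. The value of 3.00 is that of activin 2, on which miR-301a was not detected, so it rests on a signal not well above background. Each activin array lay above each control array, and the 2 activin arrays that detected miR-301a stood at 2.57 and 2.28. miR-301a was tested because the control arrays, where its mean was higher, detected it, so this separation is a description only. All 6 arrays gave means of 2.12 ± 0.12 and 2.62 ± 0.37 (SD, n = 3 each). The difference was 0.50, activin 2 included. No p-value is given for differences with miR-301a, since the filter let it in through the group where it was higher. With no scaling and with the 75th percentile of all mouse probes, miR-301a on activin 2 fell to the lower limit and the difference was 0.36 and 0.46. Over all pairs of the 79 tested miRNAs 22.7% were likewise free of overlap. With the brighter probes alone the values were 1.69, 1.47 and 1.67 in control and 2.11, 2.15 and 1.75 with Activin, again without overlap, while with normexp background, quantile scaling and the software's total signal the groups overlapped. miR-130b minus miR-301a ran from 1.78 to 2.52 in control and from 2.11 to 3.09 with Activin. The groups overlapped, and the highest value was again on activin 2. miR-130a minus miR-130b was -0.31, 0.21 and 0.34 in control and 0.42, -0.09 and 0.16 with Activin (exact permutation p = 0.7, two-sided). These comparisons were chosen after the values had been seen.

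**Figure D4:**
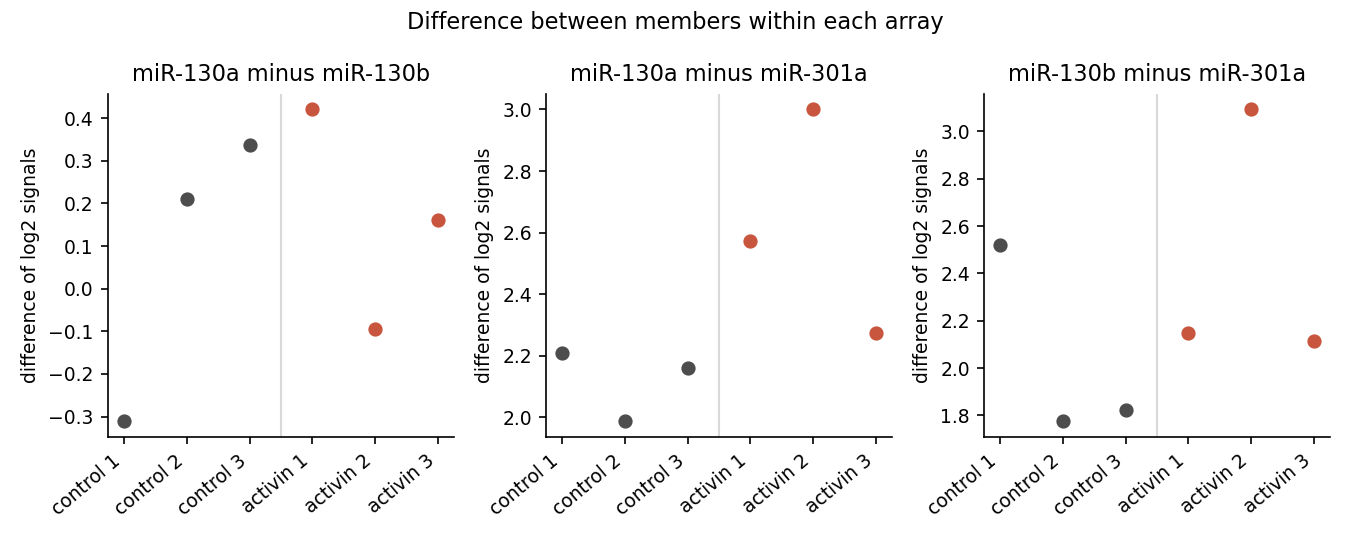
Difference of log2 signals between 2 members within each array (vertical axis, log2, a scale per panel; horizontal axis, arrays; grey control, red activin). For miR-130a minus miR-301a the control arrays lie between 1.99 and 2.21 and the activin arrays between 2.28 and 3.00.

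Array position was set beside these values, since all arrays lay on 1 slide. Control 1 and activin 2 shared column 1 and control 2 and activin 3 shared column 2. In column 1, activin exceeded control by 0.63 for miR-130a and 0.41 for miR-130b, and miR-301a was at -0.17. In column 2 the differences were 0.09 for miR-130a, 0.14 for miR-130b and -0.20 for miR-301a. With the column as a block the log2 fold changes were 0.36, 0.28 and -0.18 (limma adjusted p = 0.635, 0.688 and 0.817). Control 3 and activin 1 were alone in their columns, so these fold changes rest on columns 1 and 2. In both columns the activin array lay in row 2 and the control array in row 1, so row and group cannot be told apart there. In row 1, activin 1 differed from the mean of the 3 control arrays by 0.30 for miR-130a, -0.04 for miR-130b and -0.15 for miR-301a. Row 2 held no control array, so fold changes with the row as a block rest on activin 1 alone.

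Other miRNAs that share all or part of the seed were near or below the detection limit. miR-721, with the full seed, was detected on 0 of 6 arrays by the rule on spots, at 12.6, 19.2 and 16.6 units over control 1 to 3 and 23.4, 3.67 and 18.3 over activin 1 to 3, as the mean over its 4 probes. The hexamer AGUGCA within bases 1 to 9 of the mature strand was found in 12 (0.690%) of the 1738 mature mouse miRNAs. On the array these included miR-148a, miR-148b and miR-152, which form a family of their own, and miR-291b-3p of the miR-290 cluster. In all 4 of these the hexamer sits 1 base further along than in the members. The first 3 are shown, with bases 2 to 8 in capitals.
miR-148a-3p: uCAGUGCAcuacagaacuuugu
miR-148b-3p: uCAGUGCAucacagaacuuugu
miR-152-3p: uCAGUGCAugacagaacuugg
By the same rule on spots, miR-148a was detected on control 2 alone, and miR-148b, miR-152 and miR-291b-3p on no array. The scanner software's own call per miRNA was more lenient. It marked miR-721 and miR-148a on control 2, control 3 and activin 1, and miR-152 on control 2 and activin 1. The array held 1 star strand of the family, miR-130b*, whose 4 probes were detected on no array. None of these could be tested.

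The miRNAs whose pattern over the 6 arrays was most like each tested member were sought among the other 78 by the root mean square difference of log2 values, after each miRNA was centred on its own mean. All were read on the same arrays and share the differences in brightness between them. Nearest to miR-130a were miR-379 (0.081), miR-15a (0.092) and miR-92a (0.097), where the median over the 78 was 0.27. Nearest to miR-130b were miR-542-5p (0.10), miR-210 (0.11) and miR-193b (0.13), against a median of 0.29. Nearest to miR-301a were miR-18a (0.19), miR-106b (0.24) and miR-20a (0.26), against a median of 0.45. Members were not among each other's nearest 3. miR-130a and miR-301a differed by 0.33, which made miR-130a the miRNA in place 9 from miR-301a and miR-301a that in place 51 from miR-130a. miR-130b stood in place 35 from miR-130a, at 0.25, and in place 39 from miR-301a, at 0.45.

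**Figure D5:**
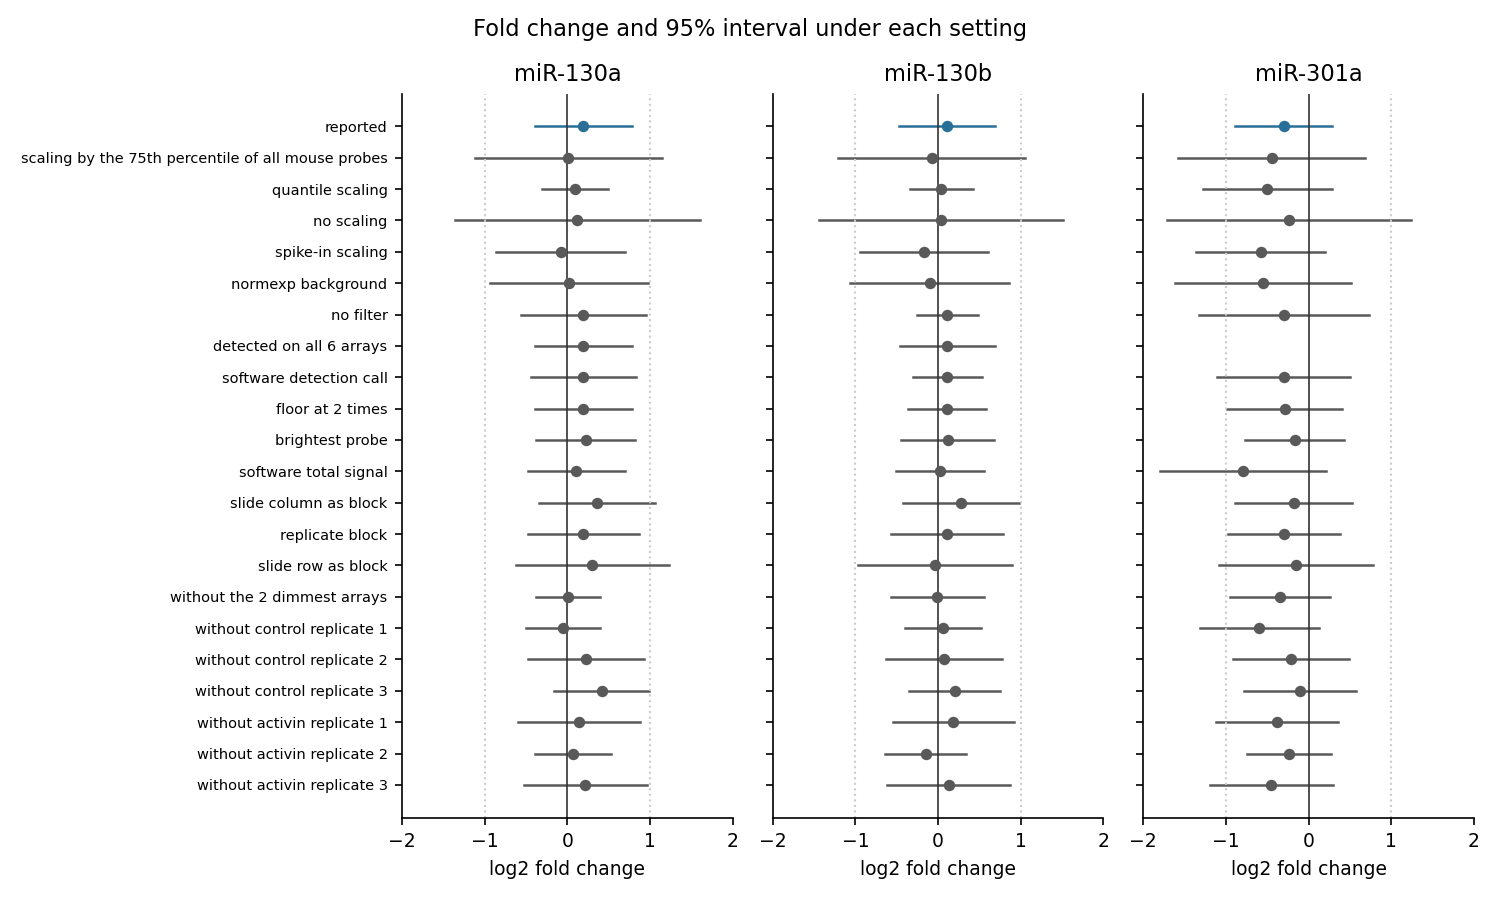
Log2 fold change, activin minus control, with its 95% interval for miR-130a, miR-130b and miR-301a under each processing setting (horizontal axis, log2; dotted lines mark a 2-fold change either way; blue is the reported value). Every interval includes 0, and the miR-301a values range from -0.79 to -0.10 over 21 settings.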

How the data were processed

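Members and lists were chosen with earlier results of these data known. The intensity values are background-subtracted spot intensities as the authors deposited them, from the scanner software Agilent Feature Extraction. Its version is 10.1.1 per the submitters' processing notes, while the file headers give 10.7.3.1. The deposited series table held the same values on all 13715 rows of each array (column medians 1.52, 1.77 and 1.29 in control, 1.84, -0.0489 and 1.24 with Activin), so its scale is linear, uncentred and of 1 colour. RNA input was 100 ng per array, per the labels' protocols.

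Spots with an outlier flag were left out. Spots were averaged per probe and probes per miRNA, each array was divided by its 75th percentile over probes detected on all arrays, and values below 0.0326 (log2 -4.94) were set to it. Of the tested values, 1 lay there. limma 3.58.1 in R 4.3.3 was run two-sided; it pooled variances almost fully (194 prior degrees of freedom), so SEs lay between 0.29 and 0.31 and follow a shared spread. It was also run on simulated data with 1 spread for all miRNAs and no dim arrays, so that run does not show how it performs here. The permutation test used scipy 1.17.1. The number of arrays limits the precision. Named were the members, miRNAs past the threshold, tested ES and epiblast markers and miRNAs sharing the seed or its hexamer. Star strands and the 3 nearest miRNAs of each tested member were also named. The design build in the file headers is mm9, so RefSeq coordinates are those of the sequence table alone.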

Additional observations from a re-analysis of the deposited data

How the results depend on the processing

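No member passed the threshold under any of the 21 alternatives, with limma adjusted p of 0.299 or above. miR-301b entered the test with no filter, without control 1 and without the 2 dimmest arrays, but lay at the floor on every array in the first 2 and on 2 of 4 arrays in the last, so no fold change is given for it. miR-301a is absent from the test of miRNAs detected on all 6 arrays. Its values ran from -0.79 to -0.10 over the 20 alternatives that tested it, in most of which it entered through the control arrays. miR-130a turned to -0.082 with spike-in scaling, and miR-130b to -0.073 with the 75th percentile of all mouse probes, -0.17 with spike-in scaling, -0.10 with normexp background, -0.038 with slide row as a block and -0.0095 without the 2 dimmest arrays; the cause was not tested. Leaving out each array in turn gave -0.052 to 0.41 for miR-130a, -0.15 to 0.20 for miR-130b, -0.59 to -0.10 for miR-301a, -0.24 to 0.00 for the family median relative to all tested miRNAs, and 0 to 1 for the count of miRNAs past the threshold (1 only without control 3). That count, 1 as reported, was 0 under every other scaling, normexp, each other filter, detection rule and probe summary, the floor at 2 times, slide row as a block and without the 2 dimmest arrays, and 1 with slide column as a block; where it was 0 in those settings, 0 to 13 miRNAs had an unadjusted p under 0.05 in limma. Deviations from the group mean of arrays with the same replicate number in their titles correlated at -0.64, -0.09 and 0.34. Of the 6 arrays, 1 was nearest its own number. The 2 dimmest arrays carry different numbers, so these correlations cannot show whether cultures were paired. With the replicate block the values stayed at 0.20 for miR-130a, 0.11 for miR-130b and -0.30 for miR-301a, and 1 miRNA passed. The scalings moved the median of all tested miRNAs from 0.17 to between -0.11 and 0.09, and normexp moved it to -0.31. Detected pairs of member and array numbered 18 to 21 under 3 other detection rules. The files hold no mean spot signal, so normexp used the median. Slide row and the 2 dimmest arrays were chosen after seeing the data. Low signal on control 1 and activin 2 limits what can be said of miR-301a and miR-301b.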
